A study of Homo sapiens with 3 samples.

Results

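DDX41, ADARB1 and ADAR are the genes whose RNA can carry reads of the transgenes used in a HyperTRIBE experiment, a method that fuses the hyperactive catalytic domain of ADAR to a protein of interest and reads A-to-G changes as marks of RNA it came close to. Included are all rows under those names in 3 lists of A-to-G positions: 42 rows at 39 positions, of 16820 listed positions in all. DDX41 had 23 positions, ADARB1 5 and ADAR 11. The cells were THP-1, a human leukemia line, transduced with pGK-GFP retrovirus made in 293T cells and harvested for total RNA at day 7. There was 1 library in each of 3 groups: the virus with no transgene (empty vector), the catalytic domain by itself (ADARcd alone) and its fusion to DDX41 (DDX41-ADARcd). With no replicate libraries, every value below describes a library and not a condition, and the 95% intervals cover the error of counting alone (PCR copies of a molecule count as separate reads when molecules carry no identifier). The labels say only that the domain is that of ADAR and do not name the gene it was taken from, nor at which end of DDX41 it was joined.

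ADAR enzymes turn adenosine in double-stranded RNA into inosine, which sequencing reads as G. In human cells ADAR encodes ADAR1, the enzyme that edits most inverted repeats and keeps cellular RNA from setting off interferon signalling, and ADARB1 encodes ADAR2, known for editing glutamate receptor transcripts in the brain. Both carry RNA-binding domains in the first part of the protein and the deaminase domain at the carboxy-terminal end, and both favour an adenosine that follows U or A over one that follows G. DDX41 is a DEAD-box RNA helicase, linked to splicing and to sensing of nucleic acids in the cytosol, and is mutated in inherited and acquired myeloid neoplasms. A HyperTRIBE transgene is itself transcribed into RNA that the protein it encodes can meet.

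The sequences around the DDX41 positions with 2 or more edited reads are shown because they carry most of the edited reads of DDX41 described below. Each is 29 bases of the annotated transcript, from 5′ to 3′ on the minus strand of chromosome 5 (GRCh38), in DNA letters, with the listed edited A in capitals.
DDX41 chr5:177515008-177515036: cacgggttcaggcaAgacactggtgttca
DDX41 chr5:177512570-177512598: aaggatgtcctAgtAgccacAgacgttgc
DDX41 chr5:177512329-177512357: caggcatcgccactAccttcatcaacaaa
DDX41 chr5:177516327-177516355: cccgctaggccctcAgtccaacgtcagcc
DDX41 chr5:177513764-177513792: aagatggtcagcctAgacatctgtcgctA
DDX41 chr5:177512506-177512534: tcatcaattatgacAtgccagaggagatt
DDX41 chr5:177512141-177512169: agAagccaagcagaAggtgccgcccgtgc
The central A had 8 edited reads in each of the first pair of sequences, 3 in the next and 2 in the others. The second sequence holds 3 listed positions.

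The ADARB1 positions are shown for comparison, on the plus strand of chromosome 21. The first window crosses an exon junction, so that only the position of its edited A, 45180443, is given.
ADARB1 A at 45180443: gtcgtcatgacaacAggcacagatgttaa
ADARB1 chr21:45183466-45183494: gtggagatgccagaAtcttctcaccacat
ADARB1 chr21:45184961-45184989: cagctacggaccaaAAtagagtctggtga
ADARB1 chr21:45220912-45220940: tattgaggtcatcaAcgccacgactggga
Of these 5 listed A, 0 follow T. Of the 23 listed A of DDX41, 8 do.

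DDX41 had far more reads in the library that carried the fusion than in ADARcd alone. At its 23 positions DDX41-ADARcd had 104 to 274 reads with a median of 236, and ADARcd alone had 20 to 48 reads with a median of 32. The lowest value in the fusion library, 104 reads at codon 602, lay above the highest in ADARcd alone, 48 reads at codon 209. The libraries thus did not overlap at the DDX41 positions, and overlap was not counted for other genes. The read ratio of DDX41-ADARcd to ADARcd alone was 3.59 to 9 with a median of 6.93, and 6.53 (6.05 to 7.05) for the summed reads. Neighbouring positions are covered by the same reads, which makes that interval too narrow. With only 10 positions at least 150 bases apart the summed ratio was 6.58 (5.85 to 7.43).

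The ratio has to be read against the other genes, since the libraries differed in depth. Over 453 genes with 5 or more listed positions of at least 10 reads in both libraries the median ratio was 0.673, with a 5th to 95th percentile of 0.533 to 0.886. Divided by that median, the DDX41 ratio was 10.3. DDX41 ranked 1 from the top of the 453 genes, of which 2, or 0.442%, had a ratio over 2 times the median. The next genes were HFM1, a helicase gene of meiotic recombination, with a ratio of 1.61 over 24 positions, SLCO5A1, of the organic anion transporter family, with 1.23 over 7, and MED18, a subunit of the Mediator complex, with 1.23 over 5. At single positions the gap was narrower: the lowest DDX41 ratio was 3.59 and the highest elsewhere 2.2, in APBA2, with 22 reads against 10. Of 8827 positions, 23 had a ratio over 3, or 0.261%, and all 23 were those of DDX41. That cut lies between the lowest DDX41 ratio and the highest elsewhere, so the count follows from those values.

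**Figure D1:**
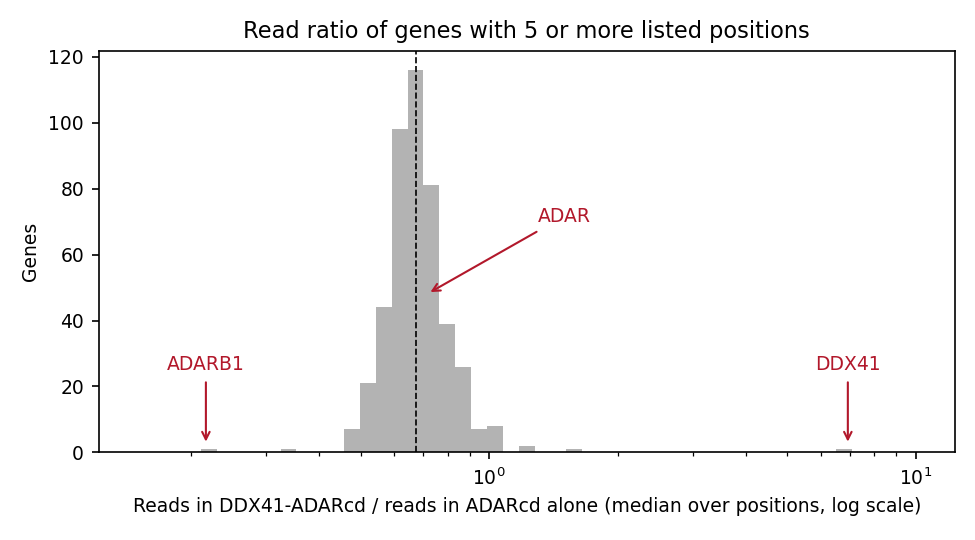
Histogram of the read ratio of DDX41-ADARcd to ADARcd alone for 453 genes with 5 or more listed positions, each the median over its positions (log axis); the dashed line is the median of all genes, 0.673. DDX41 at 6.93 and ADARB1 at 0.217 stand at either end, and ADAR at 0.714 lies in the middle.

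ADARB1 was the reverse. ADARcd alone had 872, 1356, 909, 903 and 996 reads at its 5 positions, in the order of the coding sequence, and DDX41-ADARcd had 173, 294, 224, 223 and 216. Every value in ADARcd alone was above every value in the fusion library. Most genes had fewer reads in the fusion library, and how many separated in this way was not counted. The ratio was 0.217 with a range of 0.198 to 0.247, and 0.224 (0.21 to 0.239) for the summed reads. It ranked 1 from the bottom of the 453 genes, 3.10-fold under their median, and was the 1 gene (0.221%) below the median divided by 2. Of the 8827 positions, 7 (0.0793%) had a ratio under 0.25, and 5 of these were the ADARB1 positions. That cut lies just above the highest ADARB1 ratio, 0.247, so that all 5 fall under it follows from where it was placed. The nearest genes in ratio were LYZ, the lysozyme of monocytes, with 0.341 over 9 positions, PRKAR2A, a regulatory subunit of protein kinase A, with 0.458 over 7, and P2RY2, a nucleotide receptor, with 0.471 over 6.

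ADAR, the gene of ADAR1, followed the bulk of genes. Its 9 positions against ADARcd alone had 28 to 94 reads in DDX41-ADARcd, with a median of 63, and 55 to 119 in ADARcd alone, with a median of 95. The ranges overlapped. The ratio was 0.714 (range 0.509 to 0.857), which is 1.06 times the median of genes, and its rank was 310 of 453 from the bottom. Among the nearest ratios were those of RPS6 (0.713), a protein of the small ribosomal subunit, and LGALS1 (0.716), which encodes galectin-1.

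**Figure D2:**
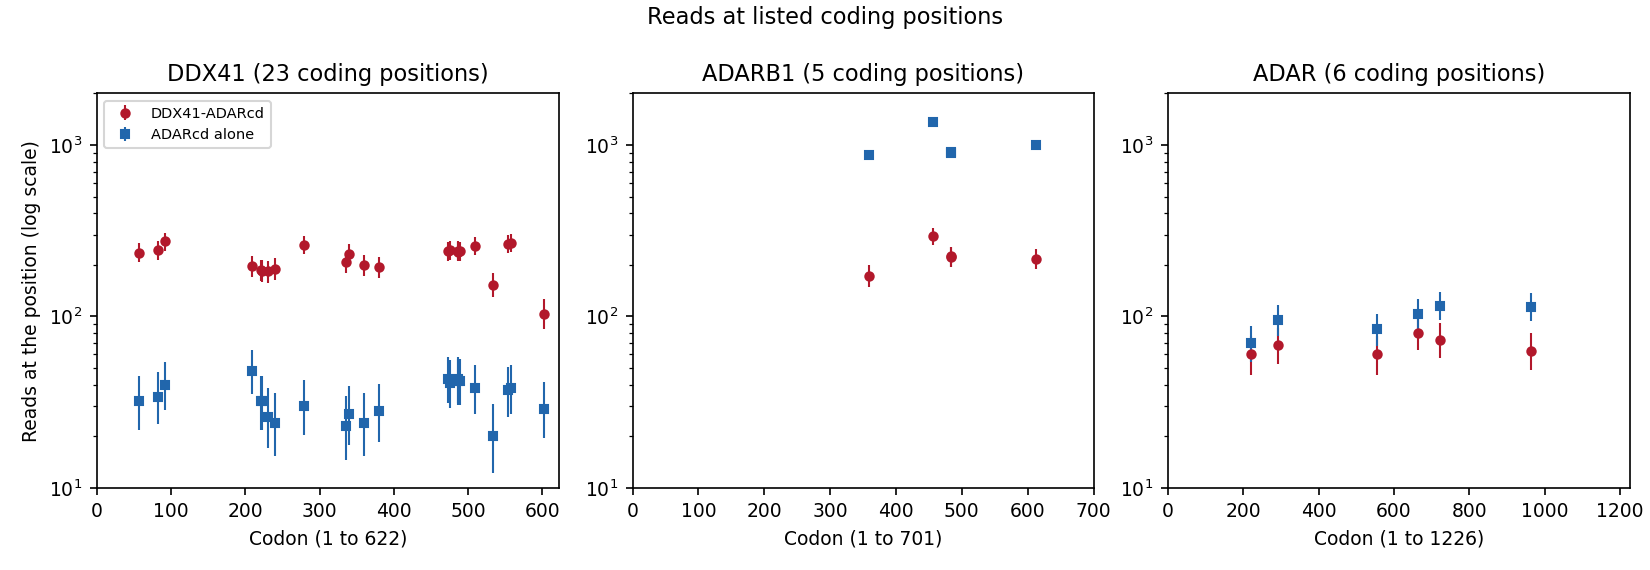
Reads (log axis) at the listed coding positions of DDX41, ADARB1 and ADAR by codon, in DDX41-ADARcd (circles) and ADARcd alone (squares), with exact Poisson 95% intervals. The fusion library is above at all 23 DDX41 positions and below at all 5 ADARB1 positions, and the positions of ADARB1 begin at codon 359 of 701.

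Reads per position were set beside each other within a library, since a position is 1 base in every gene. Reads also vary along a gene, from 104 to 274 over the DDX41 positions in DDX41-ADARcd, which limits the comparison. In DDX41-ADARcd, the DDX41 reads above the level of ADARcd alone, after that level was scaled by the median ratio of genes, came to 84.5 to 247 per position, with a median of 211. ADARB1, from which no such level was subtracted, had 173 to 294 reads in the same library, with a median of 223. The medians of these unlike measures stood at 0.946 to 1. Of the 23 DDX41 positions, 17 lay within the ADARB1 range, which rests on 5 positions. Positions of unrelated genes also had reads in that range, and their share was not counted. In ADARcd alone, ADARB1 had a median of 909 reads, or 612 after the same scaling. Reads of a transgene and of the cell's own gene cannot be told apart in these lists. More transduced cells and more transgene RNA per cell cannot be told apart either.

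The positions covered different parts of the 3 coding sequences. The 23 DDX41 positions ran from codon 56 to codon 602 of 622 and fell in 10 of the 17 exons of the transcript. Of them 0 lay in either untranslated region, which hold 90 A (5′) and 43 A (3′), against 455 coding A. Among 49 other genes with 5 or more positions and a median of 150 to 300 reads, 8 also had all positions in coding exons. The DDX41 gene lies at positions 177511577 to 177517469 of chromosome 5. The 5 ADARB1 positions ran from codon 359 to codon 613 of 701, in 4 of 11 exons, all in the carboxy-terminal part that holds the deaminase domain. That gene spans positions 45073853 to 45226560 of chromosome 21, and no position before codon 359 or in the 4366 bases of its 3′ UTR was listed. ADAR, at positions 154582057 to 154628013 of chromosome 1, had 6 of its 9 positions against ADARcd alone in coding exons, from codon 219 to codon 963 of 1226, and 3 in the 3′ UTR. Its other 2 positions, listed for ADARcd alone against the empty vector, were at codons 164 and 284. A list holds only positions with an edited read, so an unlisted stretch can have reads.

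Along DDX41 the ratio varied between positions, and whether it did so beyond counting error was not tested. It was 6.85 to 7.38 at the 3 positions between codons 56 and 92. It was 4.1 to 9 at the 10 positions between codons 209 and 380, and 3.59 to 7.65 at the 10 positions between codons 473 and 602. The peak, 9 (5.84 to 14.5), was at codon 335, with 207 reads against 23. The lowest ratio, 3.59 (2.36 to 5.62), was at the position nearest the stop codon and came with the lowest read number in the fusion library. The other low value, 4.1 (2.98 to 5.75) at codon 209, came with the highest read number in ADARcd alone.

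The nearest listed genes around the members had ratios from 0.632 to 1.2. DOK3, an adaptor protein of immune receptors that ends 0.303 kb from DDX41, had 19 reads against 22.5 at the median of 2 positions and a ratio of 0.949. TMED9, 74.7 kb from DDX41 on the other side, had 0.632 at 1 position. ITGB2, the integrin beta chain of leukocytes, which lies 142 kb from ADARB1, had 0.636 at 1 position. PCNT, the centrosome protein pericentrin, had 0.765 at 1 position, with 1098 kb between it and ADARB1. Around ADAR, UBE2Q1-AS1 had 0.759 and PBXIP1 1.2, each at 1 position.

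Edited reads of DDX41 itself were seen at a low level in the library of the fusion. In DDX41-ADARcd, the 23 positions had 45 edited reads of 5044 (0.892%, 0.651 to 1.19), with levels from 0.365% to 4.37% and a median of 0.538%. The level was highest at codon 231, with 8 of 183 reads (4.37%, 1.91 to 8.43), then at codon 487, with 8 of 242 reads (3.31%, 1.44 to 6.41), and at codon 534, with 3 of 153 reads (1.96%, 0.41 to 5.62). These are the first 3 sequences printed above. A further 6 positions had 2 edited reads and 14 had 1. By the way the list was made, ADARcd alone had 0 edited reads at each DDX41 position, and its 20 to 48 reads allow a level of up to 15% to 6.25% (3 reads of the depth). At codon 231 ADARcd alone had 0 edited of 26 reads, which does not exclude the 4.37% seen in the fusion library.

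**Figure D3:**
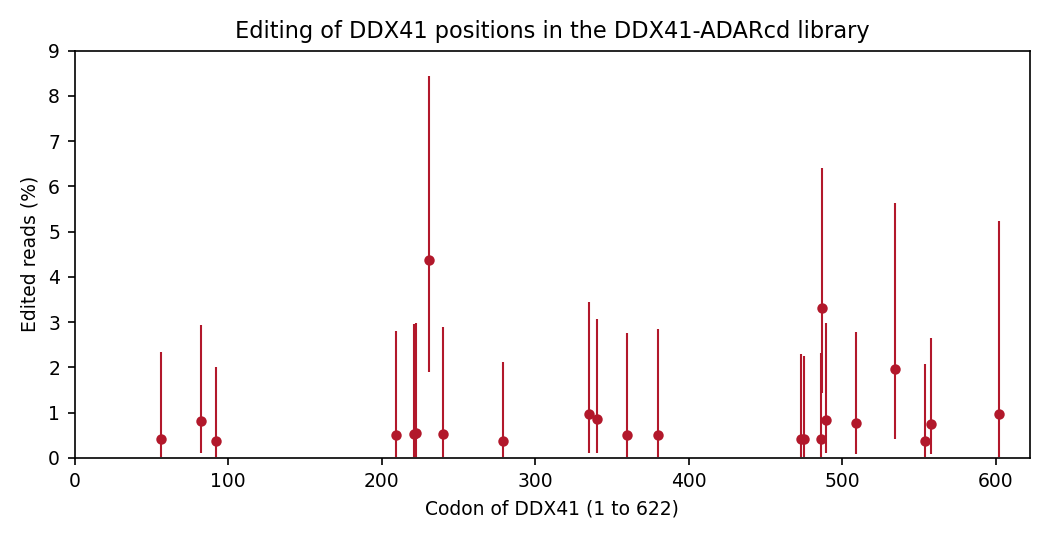
Edited reads (%) at the 23 DDX41 positions in DDX41-ADARcd by codon, with exact Clopper-Pearson 95% intervals. The positions at codons 231 and 487 reach 4.37% and 3.31%, and most others lie under 1%.

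In the two-sided Fisher's exact test of edited and other reads, run over all 8827 positions of the list with Benjamini-Hochberg adjustment, 0 of the 23 DDX41 positions passed at an adjusted p under 0.05. The test called 0 positions (0%) in the whole list and 39 (0.442%) at an unadjusted p under 0.05. The smallest unadjusted p of DDX41 was 0.6, at codon 231. At its median depths of 236 and 32 reads, 28 edited reads (11.9%) would be needed for an unadjusted p under 0.05. The test compares 2 libraries, and since the list holds only positions whose control has 0 edited reads it could only come out higher in the fusion.

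Several DDX41 positions had repeated edited reads, and their share was set beside that of other positions in the same library. Of the 23 positions, 9 had 2 or more edited reads (39.1%, 19.7 to 61.5) and 3 had 3 or more (13.0%, 2.78 to 33.6). Among 1023 positions of other genes with 104 to 274 reads in DDX41-ADARcd, 156 had 2 or more (15.2%, 13.1 to 17.6), 6 had 3 or more (0.587%, 0.216 to 1.27), and the highest number was 4. Those positions had a median of 236 reads in ADARcd alone, against 32 for DDX41, and a deeper control leaves out more positions that were edited in both. The list against the empty vector offers a control as shallow as that of DDX41. Its 560 positions within the DDX41 range of reads in both libraries, with medians of 176.5 and 29 reads, had 2 or more edited reads at 86 (15.4%, 12.5 to 18.6) and 3 or more at 8 (1.43%, 0.619 to 2.80). Of these, 2 positions had 5 or more edited reads, in HLA-B with 19 and SRP14 with 5, and both were listed for ADARcd alone too. The median editing level went the other way: 0.538% at the DDX41 positions, 0.685% at the 1023 positions and 0.610% at the 560. With 1 edited read at 14 of the 23, 867 of the 1023 and 474 of the 560 positions, that level largely follows read depth. The median depth in DDX41-ADARcd was 236 reads at the DDX41 positions, 160 at the 1023 and 176.5 at the 560. More reads also give more room for repeated edited reads, and the sets were not matched in median depth. Differences between DDX41 and these sets were not tested.

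**Figure D4:**
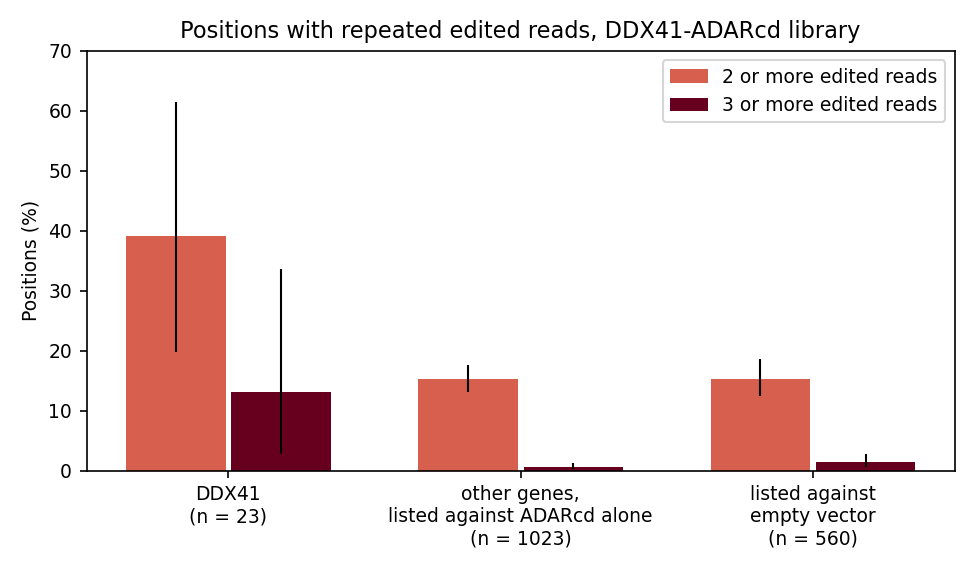
Share (%) of positions with 2 or more (light) and 3 or more (dark) edited reads in DDX41-ADARcd, for the 23 DDX41 positions, 1023 positions of other genes listed against ADARcd alone and 560 positions listed against the empty vector, all with 104 to 274 reads there. Bars start at 0 and carry exact Clopper-Pearson 95% intervals; DDX41 stands at 39.1% and 13.0%.

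Listed positions made up 23 of the 455 coding A of DDX41 (5.05%). In 49 other genes with 5 or more positions and a median of 150 to 300 reads, listed positions made up a median of 1.81% of the coding A (quartiles 1.41 to 2.43), and 3.88% at most. In 40 genes of the list against the empty vector with that number of reads, and with control reads in the range of DDX41, the median was 2.04% (quartiles 1.63 to 2.80). The highest of them was UBB, a ubiquitin gene, with 8 of 185 (4.32%). ADARB1 had 5 of 500 coding A listed (1%) and ADAR 6 of 1043 (0.575%). These shares were not matched to DDX41 in depth. In ADARcd alone, ADARB1 had 872 to 1356 reads against 20 to 48 for DDX41, and ADAR had a median of only 63 reads in DDX41-ADARcd. The ADARB1 share is also of its whole coding sequence, though its positions begin at codon 359.

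The base before the listed A of DDX41 was T or G in other shares than before its coding A at large, and the intervals overlapped for G but not for T. A T came before the edited A at 8 of 23 positions (34.8%, 16.4 to 57.3), against 42 of the 455 coding A of DDX41 (9.23%, 6.73 to 12.3). A G came before it at 3 (13.0%, 2.78 to 33.6), against 168 of 455 (36.9%, 32.5 to 41.5). A G followed at 12 (52.2%, 30.6 to 73.2), against 170 of 455 (37.4%, 32.9 to 42.0), with overlapping intervals. TAG with the A at its centre was found at 4 of the 23 positions and at 9 of the 455 coding A. The same bases were counted at the 250 A that ADARcd alone had edited in 5 or more reads, in its list against the empty vector. There T came before 45.2% (38.9 to 51.6), G before 4.4% (2.22 to 7.74) and G after 55.6% (49.2 to 61.9). That cut is stricter than the one for DDX41, where 14 of the 23 positions had 1 edited read. All 5781 A on a transcript in that list of ADARcd alone gave 16.9%, 25.6% and 40.6%. Over all 8761 A on a transcript in the list of DDX41-ADARcd against ADARcd alone, the shares were 13.3%, 29.4% and 37.2%. At the 9 DDX41 positions with 2 or more edited reads, T came before 4 and G before 0. The differences were not tested.

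**Figure D5:**
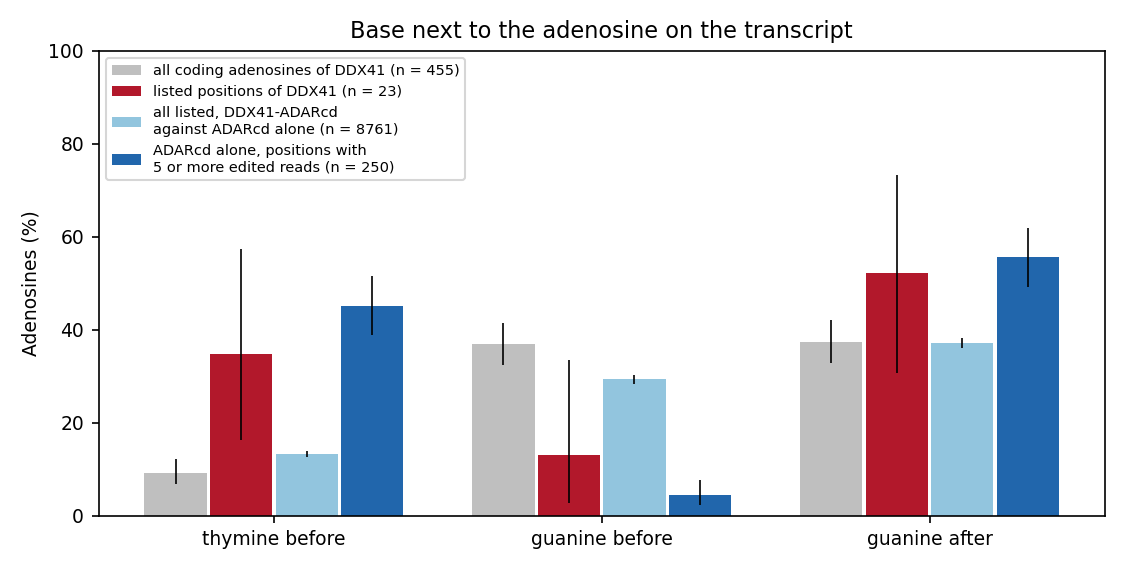
Share (%) of adenosines with thymine before, guanine before and guanine after them on the transcript, for all coding adenosines of DDX41, its 23 listed positions, all listed positions of DDX41-ADARcd against ADARcd alone, and ADARcd alone positions with 5 or more edited reads. Intervals are exact Clopper-Pearson 95% intervals. For the base before, the listed positions of DDX41 lie between its coding adenosines and the ADARcd alone positions with 5 or more edited reads. That cut is stricter than the one for DDX41.

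Read as G, the edited A would change the amino acid at 19 of the 23 DDX41 positions and leave it at 4. The A was the first base of the codon at 8 positions, the second at 10 and the third at 5. The position at codon 231 would change its amino acid and that at codon 487 would not. In ADARB1 3 of 5 positions would change the amino acid and in ADAR 4 of 6 coding positions.

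Editing of ADARB1 and ADAR rested on 1 or 2 reads at each position. In DDX41-ADARcd, ADARB1 had 6 edited reads of 1130 (0.531%, 0.195 to 1.15) over its 5 positions, 2 of 173 at codon 359 and 1 at each of the others. By the way the list was made, each of these positions had an edited read in the fusion library and 0 edited reads in ADARcd alone. The 872 to 1356 reads of ADARcd alone give limits of 0.344% to 0.221%. Because both sides were selected, these limits and the 0.531% cannot show whether editing of ADARB1 differed between the libraries. The test of codon 359 that follows is subject to the same selection. The position at codon 359 had an unadjusted p of 0.0273 in the two-sided Fisher's exact test and an adjusted p of 0.541, and was the 1 member position of 37 with an unadjusted p under 0.05. ADAR had 10 edited reads of 568 (1.76%, 0.847 to 3.21), with 2 of 63 at codon 963 and 1 elsewhere. Neither ADARB1 nor ADAR had a listed A after T in this list, 0 of 5 and 0 of 9.

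Bases other than A and G at the same positions give a measure of read error. In DDX41-ADARcd they made up 6 of 5044 reads at the DDX41 positions (0.119%), 1 of 1130 at ADARB1 (0.0885%) and 2 of 568 at ADAR (0.352%), against 0.137% over the whole list. In ADARcd alone they were 0 of 773, 0 of 5036 and 0 of 819 reads, which allows up to 0.388%, 0.0596% and 0.366%. The edited share is higher by construction, since each position was listed for an edited read.

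ADAR alone of the 3 genes was listed against the empty vector, where it can be compared across the 3 libraries. At codon 292 there were 68 reads in DDX41-ADARcd, 95 in ADARcd alone and 12 in the empty vector. Codon 554 had 60, 84 and 16 reads, and position 154583620 in the 3′ UTR had 94, 119 and 10. All 3 positions were highest in ADARcd alone and lowest in the empty vector. The ratio of DDX41-ADARcd to the empty vector was 5.67, 3.75 and 9.4, against a median of 5.82 over the 3516 positions of that list (5th to 95th percentile 2.85 to 15.01). In ADARcd alone against the empty vector, ADAR was edited in 2 of 108 reads at codon 164 and 1 of 95 at codon 284, with 21 and 11 reads in the empty vector. Those ratios, 5.14 and 8.64, compare with a median of 8.77.

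DDX41 and ADARB1 had 0 positions in both lists against the empty vector. Every position there has 10 or more reads in the empty vector. Whether the empty vector held fewer than 10 reads at these positions was not tested.

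Genes related to the members were looked at as 3 lists. Of 8 adenosine deaminases, ADARB1 and ADAR had listed positions. Of the other DEAD-box helicases, RNA-remodelling relatives of DDX41, 17 had positions with 10 or more reads in both libraries, with ratios of 0.404 (DDX18) to 0.783 (DDX24) and a median of 0.64. None was over 2 times the median of genes or under the median divided by 2, against 78 of 3433 genes with at least 1 such position (2.27%). DDX17 had 0.537 over 7 positions, DDX3X 0.581 over 5 and DDX6 0.653 over 5, and the most edited reads at any helicase position was 2. Of 19 genes of cytosolic nucleic acid sensing, 6 had such positions, with a median ratio of 0.941. TMEM173, which encodes the adaptor STING, had 0.623 over 3 positions, and CGAS, the DNA sensor upstream of it, 0.648 over 2. BTK, a tyrosine kinase of immune receptors, had 0.7 at 1 position. EIF2AK2, the RNA-activated kinase PKR, had 1.18 at 1 position with 13 reads against 11. MAVS, the adaptor of the RNA sensors, had 1.27 over 3 positions at a median of 14 reads against 11. TRIM21, an antibody receptor and ubiquitin ligase, was the 1 gene over 2 times the median, 1.54 at 1 position with 20 reads against 13. EIF2AK2, MAVS and TRIM21 lay above the 95th percentile of genes with 5 or more positions, 0.886, each on few reads.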

How the data were processed

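The files hold counts: per the file headers, each row gives the reads of every base, and their total, at 1 position in 2 libraries, not normalized. Per the submitters' processing notes, CASAVA 1.4, FastQC 0.11.7, STAR 2.5 and the build mm10 were used, with no role given. Which program called the sites, and with which filters, is not given in the sources used here. No column names a library: gDNA/wtRNA columns were read as the control of a list, and the others as the library that the list is named for first. Of 17592 rows on the chosen transcripts of human GENCODE 29 (GRCh38), 99.9% have A there, so positions are given on GRCh38. For each gene 1 coding transcript was used (principal with a consensus coding sequence first, then the longest coding sequence): ENST00000507955.5 for DDX41, ENST00000348831.8 for ADARB1 and ENST00000368474.9 for ADAR.

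Library totals were not given either, so depth is per position. In the list of DDX41-ADARcd against ADARcd alone its median was 30 and 45 reads. Read ratios used positions with 10 or more reads in both libraries, and a gene's ratio is the median over its positions. Editing levels are edited reads as a percent of all reads at a position. Intervals are exact (Clopper-Pearson for shares, binomial for ratios), and the limit for a count of 0 is 3 reads. The Fisher's exact test was checked on edits simulated at the depths of the list, without its selection for 0 edited control reads. The check therefore does not cover that selection. Software was Python 3.11.15 with SciPy 1.17.1, NumPy 2.4.6, pandas 2.3.3 and matplotlib 3.10.9. The genes, lists, tests and alternatives were chosen with earlier results of these data known. Named genes are the members, for each of them the 3 genes nearest in ratio (1 of which is not reported here), the nearest listed gene on each side, and members of the lists of adenosine deaminases, nucleic acid sensors and DEAD-box helicases; APBA2, UBB, HLA-B and SRP14 were named after their values were seen. Alternatives covered summed reads, spaced positions, other read minimums, scaling and adjustment.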

Additional observations from a re-analysis of the deposited data

How the results depend on the processing

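Dividing by the median ratio of genes moved the read ratio of DDX41 to 10.3, that of ADARB1 to 0.322 and that of ADAR to 1.06. Summed reads, 1 position per 150 bases and a minimum of 50 reads left the 3 ratios within their counting intervals; no DDX41 position has 50 reads in ADARcd alone, so that minimum gives no value for it. The DDX41 reads above the scaled level were 211 per position, and 197 with no scaling. The editing level of DDX41 ranged from 0.5% (200 or more reads) to 0.892% (summed reads) over its alternatives, of which spaced positions, like the comparison with positions against the empty vector, were added after seeing the data. The number of DDX41 positions called was 0 under each of the 5 alternatives, which says nothing of stability, since 28 edited reads would be needed at the median depths and the most seen was 8. No paired analysis was possible because each group has 1 library. Control depth limits the editing results: 20 to 48 reads at the DDX41 positions in ADARcd alone with 0 edited do not exclude a level under 6.25%.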
